A study of Mus musculus with 24 samples.

Results

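The mouse mitochondrial genome encodes subunits of the respiratory chain, and 10 of these protein genes were followed in cancer cells sorted from mouse tumours as p27K high or p27K negative. The members were chosen by symbol: mt-Nd1, mt-Nd2, mt-Nd4, mt-Nd5, mt-Nd6, mt-Cytb, mt-Co1, mt-Co2, mt-Co3 and mt-Atp6, which are 10 of the 49038 genes in the D2A1 and EMT6 count tables. Both tables held all 10. The 4T07 table of 24978 genes listed 0 symbols of the mitochondrial genome, so the third line of the study was not analysed here.

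D2A1 and EMT6 are mouse mammary carcinoma lines. All groups shared the same manipulation: cells carrying mCherry and an mVenus-p27K reporter were placed in the mammary fat pad of female Balb/cJ mice, and tumours were taken 14 days after injection of 250000 cells. mVenus-p27K is a fluorescent fusion of the cell cycle inhibitor p27, which accumulates in cells that have left the cycle. The 4 groups used here were D2A1 p27K high, D2A1 p27K negative, EMT6 p27K high and EMT6 p27K negative, with 4 libraries each. The submitters' labels call the p27K high cells QCC, the quiescent cancer cells, and both gates were sorted from the same tumour. No group received a drug, and the labels give neither the animals' age nor whether a transduced line was a single clone. Each line had its own sequencing run, so line and run cannot be told apart when levels are compared between lines.

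Total counts ran from 6727594 to 20174767 in D2A1 p27K high, from 1335433 to 15641189 in D2A1 p27K negative, from 13769682 to 20142013 in EMT6 p27K high and from 16988365 to 17508301 in EMT6 p27K negative. The gate labels were checked with Mki67, which marks cycling cells: its mean was 17.1 CPM (counts scaled to a common library size by TMM) in D2A1 p27K high against 982 in p27K negative, and 13.0 against 516 in EMT6. Of the carcinoma markers, the mesenchymal Vim stood at 4613 CPM or more in every library and the luminal keratin Krt18 at 46.5 or more. Its partner keratin Krt8 was lower in p27K high cells, at a mean of 7.98 against 59 CPM in D2A1 and 644 against 791 in EMT6. The log2 changes were -2.46 and -0.30 (edgeR's adjusted p = 8.38e-05 and 0.0128). Krt19 was higher in EMT6 p27K high cells, at a mean of 4.48 against 1.69 CPM (log2 change 1.39, edgeR's adjusted p = 0.000756). The basal keratin Krt5 was at most 0.0737 CPM and Epcam at most 10.4. The D2A1 p27K high library of tumour 3 stood apart from the other 3 of its group. Its 24 cytosolic ribosomal protein genes summed to 20178 CPM against 9726 to 12111, its nuclear complex I genes to 3375 against 1868 to 2004, and its mt-Nd6 reached 809 against 361 to 413. Results that rest on it are given with and without that tumour.

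The respiratory chain passes electrons from NADH and succinate to oxygen and uses the energy to pump protons, which then drive the ATP synthase. Complexes I, III and IV and the ATP synthase are mosaics of subunits from the mitochondrial and the nuclear genome, while complex II is wholly nuclear. Mitochondrial DNA is transcribed into long precursors from both strands, which are cut at the tRNAs between the coding genes, so the final amount of each mRNA depends on its own stability as well as on transcription. The ND genes encode the membrane arm of complex I, mt-Cytb the cytochrome b of complex III, the CO genes the catalytic core of complex IV and mt-Atp6 the proton channel subunit of the ATP synthase.

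Parts of the mitochondrial genome also lie in nuclear DNA as pseudogenes. The copies are shown first because the members copied almost whole were also those with very few counts. Whether the copies set those counts was not tested. In the GENCODE vM21 transcripts (GRCm38), every window of 50 bases of mt-Co2 also occurred in a nuclear transcript (100% of 635 windows), as did 99.9% of the windows of mt-Co3 and 99.5% of those of mt-Atp6. The longest copies lie side by side on the minus strand of chromosome 1: Gm28661 for mt-Co2, with 681 aligned bases and 0 differences, Gm28437 for mt-Co3, with 783 and 0, and Gm10925 for mt-Atp6, with 678 and 0. The first 60 bases of mt-Co2 (chrM:7013-7072, plus strand) and of Gm28661 (chr1:24615506-24615565, minus strand) show what a read would meet in such a copy, with no differing base to mark in capitals.
mt-Co2: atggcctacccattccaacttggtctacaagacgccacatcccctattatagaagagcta
Gm28661: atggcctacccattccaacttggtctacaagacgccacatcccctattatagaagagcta

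An older copy of mt-Nd2 shows the opposite case. Gm13339 on chromosome 2 matched mt-Nd2 over 510 bases with 17 differences, and 8.19% of the windows of mt-Nd2 were shared. In the stretch below (chrM:4580-4639, plus strand, and chr2:22590336-22590395, minus strand) the capitals mark the 4 differing bases, A668G, C681T, T711C and T726C, with the base of mt-Nd2 first and positions counted from the start of that gene.
mt-Nd2: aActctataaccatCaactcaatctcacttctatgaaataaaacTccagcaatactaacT
Gm13339: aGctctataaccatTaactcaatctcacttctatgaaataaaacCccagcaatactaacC

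The shared sequence of the other members lay between these cases. mt-Nd1, mt-Nd6 and mt-Cytb shared 0% of their windows with nuclear transcripts and mt-Nd5 7.61%. mt-Co1 shared 51.1%, mostly with Gm29216 and Gm13340, and mt-Nd4 62.2% with Gm28439, which matched its first 876 bases without a difference.

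Counts were very low for the 3 members that are copied almost whole. mt-Co2, mt-Co3 and mt-Atp6 had 0 to 35 counts in a D2A1 library and 40 to 92 in an EMT6 library, where each of the other 7 members had at least 559 and 1901. Per length, their means were 0.64 to 2.51 CPM per kb in D2A1 and 3.96 to 7.12 in EMT6, while no other member had a mean below 734 CPM per kb in D2A1 or 278 in EMT6. The nuclear copies had few counts too: Gm28661 had 3 to 36 counts in D2A1 libraries and 53 to 77 in EMT6 libraries. How the authors' counting treated reads that fit 2 places equally well is not given in the sources used here, and its part in these low values was not tested. The values of mt-Co2, mt-Co3 and mt-Atp6 are therefore values of a few reads, and the scaled changes computed from them below are not read as changes of these mRNAs. Medians are given with and without them.

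**Figure D1:**
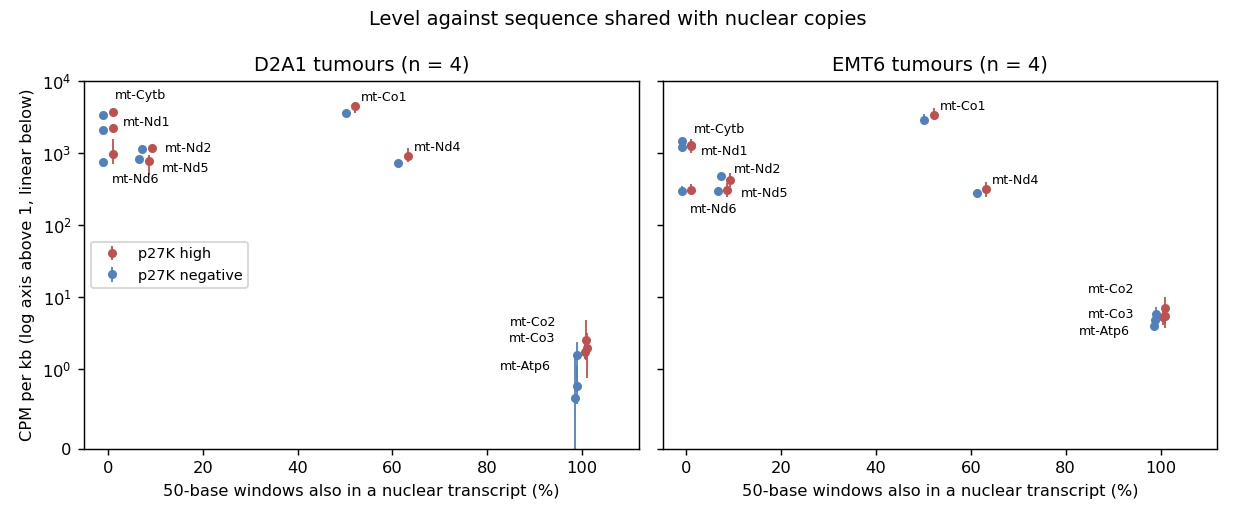
Mean level of each gene (CPM per kb, on an axis that is logarithmic above 1 and linear below) against the percentage of its 50-base windows that occur in a nuclear transcript, for p27K high (red) and p27K negative (blue) cells; bars run from the lowest to the highest of 4 libraries and the gates are offset sideways. mt-Co2, mt-Co3 and mt-Atp6, with 99.5% to 100% shared, lie far below all others, while mt-Nd4 and mt-Co1 with 62.2% and 51.1% do not.

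Among the other 7, mt-Co1 ranked highest per length in all 4 groups. In D2A1 p27K negative cells the means were 3627 ± 128 CPM per kb for mt-Co1, 3341 ± 79.3 for mt-Cytb, 2054 ± 139 for mt-Nd1 and 1152 ± 82.7 for mt-Nd2 (SD, n = 4). The libraries of mt-Co1 and mt-Cytb overlapped, as did those of mt-Nd5, mt-Nd6 and mt-Nd4, which followed at 816, 761 and 734 CPM per kb. The p27K high cells of D2A1 had the same first 4 genes in the same order, from 4470 CPM per kb for mt-Co1 to 1163 for mt-Nd2. There the libraries of mt-Nd2 overlapped those of mt-Nd6, the next gene.

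EMT6 cells gave another order below mt-Co1. In p27K negative cells mt-Co1 stood at 2883 ± 375 CPM per kb, clear of mt-Nd1 at 1488 ± 111 and mt-Cytb at 1195 ± 197, which overlapped each other (SD, n = 4). mt-Nd2 followed at 473 ± 40.0, and mt-Nd6, mt-Nd5 and mt-Nd4, at 300.3, 300.3 and 278 CPM per kb, could not be told apart within their spread. Dividing each gene's whole CPM by its windows found in no nuclear transcript, as would be fitting if no read of the shared part had been counted, put mt-Nd4 at 762 CPM per 1000 windows in these cells and mt-Nd2 at 540.2, so the place of mt-Nd4 depends on an assumption about its shared part.

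**Figure D2:**
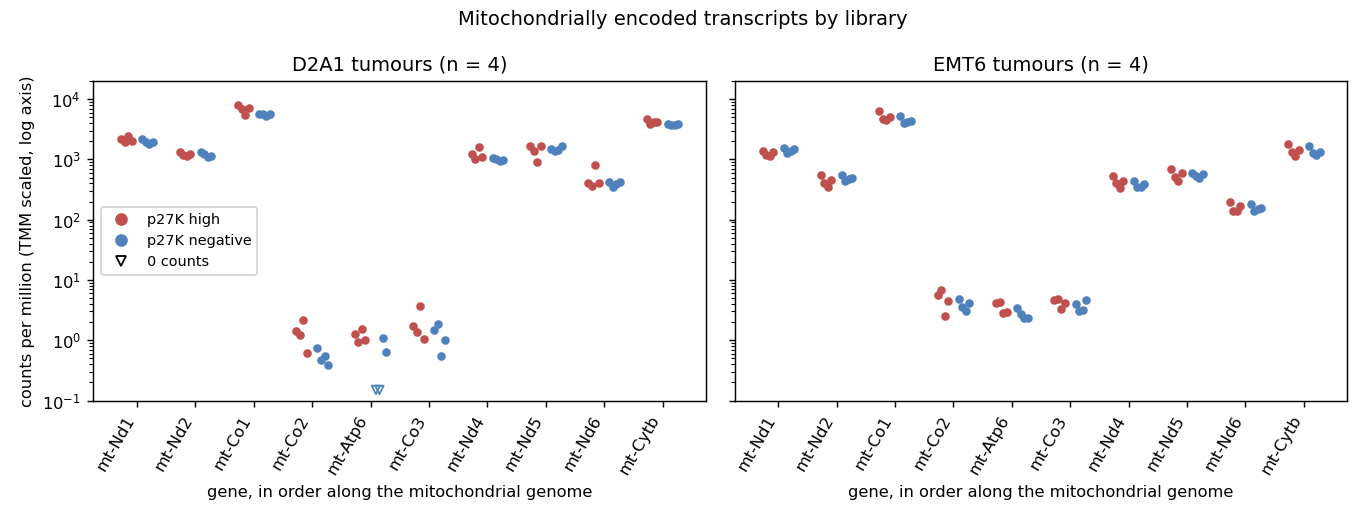
Scaled CPM of the 10 genes in every library (log axis), in order along the mitochondrial genome, for D2A1 and EMT6 tumours; each point is 1 library and open triangles mark 0 counts. The gates lie close together for 7 genes, and the D2A1 p27K high library of tumour 3 stands at 809 CPM for mt-Nd6.

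Summed, these genes took a slightly larger share of the counts in p27K high cells, with mt-Co1 as the largest part of the sum. Mean mt-Co1 was 5604 CPM in p27K negative and 6905 in p27K high cells of D2A1, and the mean sum 15485 and 17681. In EMT6 mt-Co1 was 4454 and 5150 CPM and the sum 8832 and 9450, so the other members together did not rise there. In D2A1 the 10 genes summed to 1.93%, 1.68%, 1.61% and 1.79% of all counts in p27K high libraries of tumours 1 to 4, and to 1.63%, 1.55%, 1.48% and 1.57% in p27K negative libraries. The share was higher in the p27K high library of all 4 tumours, by 0.17 on the log2 scale (SD 0.06, n = 4). In EMT6 the p27K high libraries numbered 0, 1, 2 and 4 held 1.17%, 0.861%, 0.801% and 0.940%, against 1.04%, 0.803%, 0.818% and 0.876%. The share was higher in 3 of 4 EMT6 tumours, by 0.09 on the log2 scale (SD 0.09, n = 4), so the difference was no larger than its spread between tumours. A share in bulk RNA cannot tell more transcript per cell from more cells that are rich in it.

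In D2A1, none of the members passed the test. edgeR's quasi-likelihood test with the tumour as a block called 0 of the 9 members tested at an adjusted p under 0.05, against 29.5% of all 12845 genes (14.9% higher and 14.7% lower in p27K high). mt-Co2 was removed by the filter on low counts. At an unadjusted p under 0.05 there was 1 member, and DESeq2 likewise called 0, with 1 at an unadjusted p under 0.05. The median change of the 9 was 0.26 on the log2 scale, that of the 7 with ample counts 0.15, and that of all genes 0.02. Without tumour 3 the first 2 medians were 0.09 and 0.06.

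The complex I genes of D2A1 differed mainly in tumour 3. mt-Nd1 (chrM:2751-3707) stood at 2185, 1961, 2445 and 1986 CPM in p27K high cells of tumours 1 to 4 and at 2145, 1923, 1827 and 1970 in p27K negative cells. On this TMM scale the high library exceeded its partner in all 4 tumours, but the groups overlapped and the gap was wide in tumour 3 alone, and the log2 change was 0.12 ± 0.12 (SE, edgeR's quasi-likelihood test, adjusted p = 0.484). mt-Nd2 (chrM:3914-4951) stood at 1306, 1186, 1129 and 1209 CPM against 1307, 1216, 1110 and 1151, which is a log2 change of 0.01 ± 0.11 (SE, edgeR's adjusted p = 0.936).

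mt-Nd4 (chrM:10167-11544) was 1240, 1020, 1621 and 1103 CPM against 1065, 1036, 952 and 993. mt-Nd5 (chrM:11742-13565), the longest member, was 1667, 1387, 904 and 1688 against 1497, 1388, 1431 and 1640. Tumour 3 was therefore the highest p27K high library for mt-Nd4 and the lowest for mt-Nd5. The log2 changes were 0.28 ± 0.14 and -0.11 ± 0.14 (SE, edgeR's adjusted p = 0.144 and 0.584). Without tumour 3 they were 0.11 and 0.06.

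mt-Nd6 (chrM:13552-14070) is the one member read from the minus strand of the annotation, and its last bases overlap the end of mt-Nd5 on the other strand. It stood at 413, 361, 809 and 411 CPM in p27K high and at 415, 351, 387 and 425 in p27K negative D2A1 cells. Apart from tumour 3, the gates lay close together in every tumour. The log2 change of 0.26 ± 0.17 (SE, edgeR's adjusted p = 0.284) was -0.01 without that tumour.

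mt-Cytb and mt-Co1 were the members of D2A1 with the steadiest differences. mt-Cytb (chrM:14145-15288) was 4736, 3947, 4249 and 4123 CPM in p27K high against 3942, 3761, 3743 and 3843 in p27K negative cells. Of the 10 members it alone had groups that did not overlap in D2A1, where 30.9% of all genes tested had such groups, and its log2 change was 0.15 ± 0.11 (SE, edgeR's adjusted p = 0.327). mt-Co1 (chrM:5328-6872) was 7970, 6946, 5531 and 7174 against 5754, 5639, 5317 and 5707, higher in 4 of 4 tumours with the least gap in tumour 3. Its log2 change was 0.29 ± 0.12 (SE, edgeR's adjusted p = 0.0808), and without tumour 3 it was 0.36 ± 0.07 with an adjusted p of 0.000522, the one call made among the members in that fit, which called 37% of 13656 genes.

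The remaining 3 members had too few reads in D2A1 for all but large changes to be seen. mt-Co2 (chrM:7013-7696) had 28, 20, 14 and 11 counts in p27K high and 1, 1, 1 and 6 in p27K negative libraries. mt-Co3 (chrM:8607-9390) had 35, 22, 24 and 19 against 2, 4, 1 and 16, and mt-Atp6 (chrM:7927-8607) had 25, 15, 10 and 18 against 0, 0, 2 and 10. The p27K negative libraries of tumours 1 to 3 were also the shallowest, so these counts follow depth as well as gate. After scaling, mt-Co3 gave a log2 change of 0.38 ± 0.52 and mt-Atp6 one of 1.06 ± 0.64 (SE, edgeR's adjusted p = 0.623 and 0.238).

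In EMT6, mt-Co1 and mt-Nd4 rose in p27K high cells, to 1.15 and 1.12 times the p27K negative level, and mt-Nd1 fell to 0.88 times that level. edgeR's quasi-likelihood test called these 3 of the 10 members, against 49.2% of all 13354 genes (24.1% higher and 25.1% lower). The median log2 change of the 10 was 0.11, that of the 7 with ample counts 0.03, and that of all genes 0.02. Without the tumour as a block 0 members were called, so the calls rest on the pairing of gates within tumours. The share of all genes called without the block is not given here.

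mt-Nd1 of EMT6 stood at 1361, 1202, 1136 and 1310 CPM in the p27K high libraries numbered 0, 1, 2 and 4 and at 1535, 1294, 1386 and 1481 in p27K negative libraries. It was lower in 4 of 4 tumours although the groups overlapped, because tumours with high values had them in both gates. The log2 change was -0.19 ± 0.04 (SE, edgeR's adjusted p = 0.00481). mt-Nd2 was 546, 412, 348 and 457 against 543, 444, 478 and 498 CPM, lower in 3 of 4 tumours, at -0.17 ± 0.07 (SE, edgeR's adjusted p = 0.0692). Without the tumour numbered 0, mt-Nd2 passed, at -0.23 with an adjusted p of 0.00272.

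mt-Nd4 of EMT6 was 537, 413, 336 and 439 CPM against 442, 351, 349 and 388, higher in 3 of 4 tumours. Its log2 change of 0.16 ± 0.06 (SE, edgeR's adjusted p = 0.0462) lost the call without the tumour numbered 0, 1 or 4, at adjusted p of 0.0575, 0.173 and 0.139. mt-Nd5 was 697, 508, 445 and 603 against 606, 522, 499 and 564 CPM, and mt-Nd6 was 195, 140, 138 and 167 against 180, 138, 149 and 156. Both had 2 or 3 tumours higher and log2 changes of 0.02 ± 0.06 and 0.03 ± 0.05 (SE, edgeR's adjusted p = 0.767 and 0.650). Within complex I of EMT6, the members thus ranged from a fall in mt-Nd1 to a rise in mt-Nd4.

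mt-Co1 of EMT6, the core of complex IV, was 6420, 4694, 4483 and 5002 CPM in p27K high and 5309, 4027, 4205 and 4274 in p27K negative cells. It was higher in 4 of 4 tumours, with a log2 change of 0.20 ± 0.04 (SE, edgeR's adjusted p = 0.00216), and kept its call whichever single tumour was left out. mt-Cytb was 1801, 1344, 1154 and 1461 against 1693, 1266, 1181 and 1329 CPM, at 0.07 ± 0.04 (SE, edgeR's adjusted p = 0.191). The few reads of mt-Co2, mt-Co3 and mt-Atp6 gave 0.27 ± 0.20, 0.17 ± 0.17 and 0.40 ± 0.16 (SE, edgeR's adjusted p = 0.286, 0.443 and 0.0731).

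**Figure D3:**
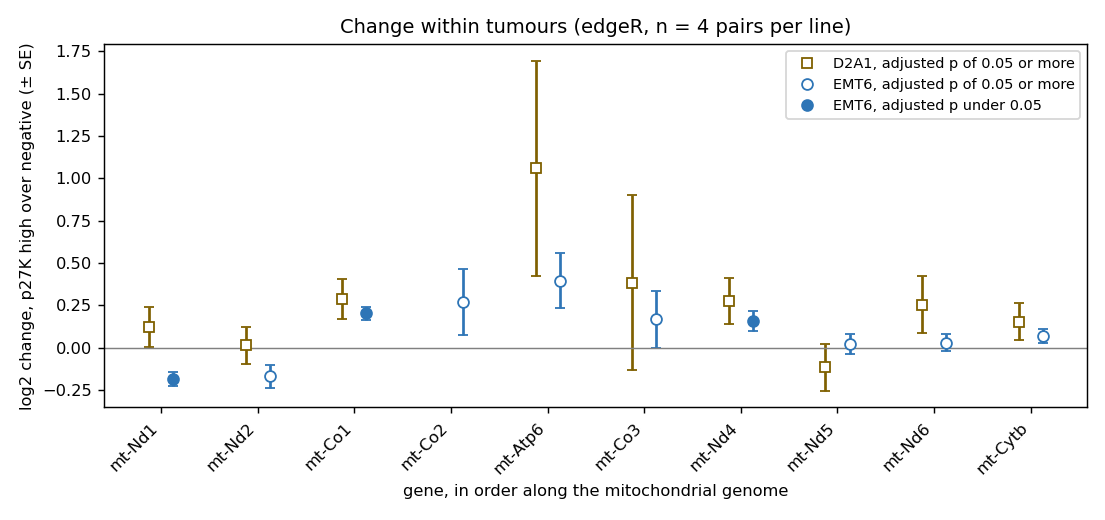
Log2 change from p27K negative to p27K high (± SE, edgeR with the tumour as a block, 4 pairs per line) for each gene in genome order; filled symbols passed an adjusted p of 0.05. The filled EMT6 symbols are mt-Nd1 at -0.19, mt-Co1 at 0.20 and mt-Nd4 at 0.16, and mt-Co2 has no D2A1 symbol because it was not tested there.

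The lines were compared by the interaction of line and gate. It called 0 of the 10 members, against 4.48% of 14830 genes (2.84% with the larger change in D2A1 and 1.64% in EMT6), and DESeq2 also called 0. 1 member had an unadjusted p under 0.05 with either tool. With edgeR this was mt-Nd1, whose change was larger in D2A1 than in EMT6 by 0.38 ± 0.12 on the log2 scale (SE, edgeR's unadjusted p = 0.00843, adjusted p = 0.107). The median difference of all genes in that fit was 0.08, and other settings put the difference of mt-Nd1 at 0.25 to 0.43. With TMM scaling mt-Nd1 was higher in p27K high cells of all 4 D2A1 tumours and lower in those of all 4 EMT6 tumours, but the log2 gap was 0.01 to 0.03 in 3 of the D2A1 tumours. As a share of all counts, D2A1 tumour 1 was at 0.2159% in p27K high and 0.2163% in p27K negative cells, so its sign depends on the scaling. Without D2A1 tumour 3 the difference was 0.28, with an adjusted p of 0.0441. The other 9 members had adjusted p from 0.274 to 0.891 in this test.

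Ratios between members do not depend on how libraries are scaled. The counts of mt-Co1 over those of mt-Nd1, a pair chosen after the values were seen and given with no test, were 4.72, 3.90, 3.95 and 3.82 in EMT6 p27K high libraries and 3.46, 3.11, 3.03 and 2.89 in p27K negative libraries. The groups did not overlap, and the ratio was higher in 4 of 4 tumours by 0.39 on the log2 scale (SD 0.05, n = 4). In D2A1 the ratios were 3.65, 3.54, 2.26 and 3.61 against 2.68, 2.93, 2.91 and 2.90, higher in 3 of 4 tumours and lower in tumour 3. The counts of mt-Co1 over mt-Nd2 were higher in p27K high cells of 4 of 4 tumours in each line, by 0.27 in D2A1 (SD 0.18) and 0.37 in EMT6 (SD 0.12).

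The share of the members' counts, drawn from the same counts as the ratios, moved the same way. mt-Co1 made up 54.5% ± 1.34 of them in EMT6 p27K high and 50.4% ± 1.03 in p27K negative cells, while mt-Nd1 made up 13.4% ± 1.09 and 16.2% ± 0.964 (SD, n = 4). mt-Nd2 made up 4.65% ± 0.222 and 5.57% ± 0.235 in EMT6, and 6.83% ± 0.157 and 7.72% ± 0.365 in D2A1 (SD, n = 4). Its share was lower in p27K high cells of all 4 tumours of each line. A share of a fixed total also falls when another member rises. In scaled CPM, mt-Nd2 of D2A1 was higher in 2 tumours and lower in 2, at a log2 change of 0.01 (edgeR's adjusted p = 0.936).

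mt-Nd6, the light-strand member, was set against the 9 others because the strands are transcribed separately. In EMT6 its counts were 1.63% to 1.80% of the other 9 in p27K high and 1.74% to 1.84% in p27K negative cells, lower in 4 of 4 tumours by 0.06 on the log2 scale (SD 0.03; exact paired permutation test, two-sided, p at the smallest value that 4 tumours allow and 0.375 after adjustment over the 3 tests). In D2A1 the ratio was lower in 3 of 4 tumours and reached 5.09% in the p27K high library of tumour 3, where no p27K negative library exceeded 2.78%, with a mean log2 change of 0.08 (SD 0.57; exact permutation p = 1). Over both lines it was lower in 7 of 8 tumours with a mean of 0.01 (exact permutation p = 1), and without D2A1 tumour 3, which was singled out for this gene, the mean was -0.12. mt-Co1 made up a mean of 36.2% to 54.5% of the members' counts in the 4 groups, so this summed ratio leans on it. Against the mean log2 counts of the other 9, mt-Nd6 was higher in 3 of 4 D2A1 tumours, by 0.39 (SD 0.48). By that measure it was lower in 3 of 4 EMT6 tumours, by 0.07 (SD 0.13), and higher in 4 of 8 over both lines. That mean weights the members with few reads like the rest. Whether the counting used strand is not given, so reads of the opposite strand over mt-Nd6 cannot be told apart from its mRNA.

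**Figure D4:**
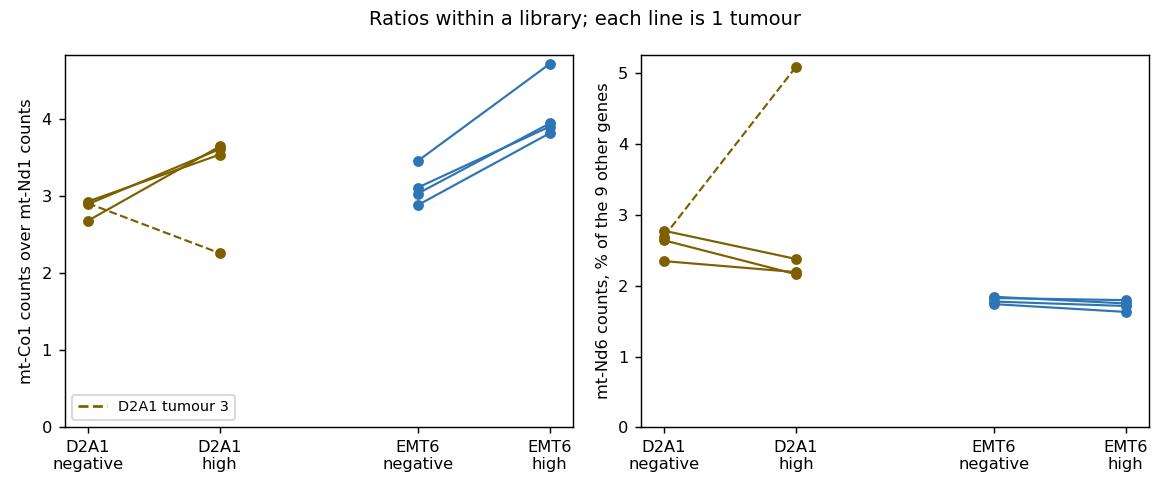
Left, counts of mt-Co1 over counts of mt-Nd1; right, mt-Nd6 counts as a percentage of the 9 other genes; each line joins the p27K negative and p27K high library of 1 tumour, and both axes start at 0. The EMT6 ratio of mt-Co1 to mt-Nd1 lies at 2.89 to 3.46 in p27K negative and 3.82 to 4.72 in p27K high libraries, and the dashed D2A1 tumour 3 goes against the other 3 in both panels.

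The tables also held 25 other transcripts of the mitochondrial genome, 3 of them short coding genes and the rest tRNAs, at low counts. In D2A1, 1 of the 10 tested rose and 0 fell (10% called, where 29.5% of all genes were). This was mt-Tp, the proline tRNA, which is read from the light strand next to the control region: it stood at 28.9 to 33.4 CPM in p27K high and 12.7 to 15.4 in p27K negative cells, a log2 change of 1.06 ± 0.16 (SE, edgeR's adjusted p = 0.000284). In EMT6 it was 18.5 to 24.7 against 17.8 to 20.6 CPM, at 0.18 (adjusted p = 0.0617).

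In EMT6, 0 of the 13 tested rose and 2 fell (15.4% called, where 49.2% of all genes were). The 2 had few reads: mt-Tf had 29 to 108 counts in an EMT6 library and mt-Tl1 113 to 292. Those of mt-Tf are near the 40 to 92 of mt-Co2, mt-Co3 and mt-Atp6. mt-Tf, the phenylalanine tRNA at the head of the heavy-strand transcript, fell by 0.69 on the log2 scale (SE 0.17, edgeR's adjusted p = 0.00786). mt-Tl1, a leucine tRNA (chrM:2676-2750) that ends on the base before mt-Nd1 begins, fell by 0.61 (SE 0.18, edgeR's adjusted p = 0.0221). mt-Nd1 itself fell in the same cells. In D2A1 mt-Tf and mt-Tl1 changed by -0.76 and -0.11 and did not pass (adjusted p = 0.276 and 0.745). The ribosomal RNAs between mt-Tf and mt-Tl1 were not analysed here.

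Most nuclear genes of the same complexes fell in EMT6, where 25.1% of all genes were called lower. Among the 7 mitochondrial members with ample counts, 1 fell and 2 rose, with a median log2 change of 0.03. mt-Nd2, at -0.17, did not pass (edgeR's adjusted p = 0.0692). Of 36 nuclear complex I subunits tested, 25 fell and 3 rose, with a median log2 change of -0.24. Ndufa5 fell by 0.61 (SE 0.06, edgeR's adjusted p = 2.42e-05), and Ndufv3 rose by 0.56 (SE 0.06, edgeR's adjusted p = 4.10e-05). In complex III, 8 of 9 nuclear subunits fell and 1 rose, with a median of -0.35, led by Cyc1, the cytochrome c1 next to cytochrome b, at -0.70 ± 0.05 (SE, edgeR's adjusted p = 5.67e-06). In complex IV 10 of 12 fell and 1 rose, with a median of -0.27, while mt-Co1 rose.

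Most nuclear subunits of the remaining complexes of EMT6 fell too, but no mitochondrial member with ample counts could be set beside them. mt-Atp6, the member of the ATP synthase, had few reads. In the ATP synthase 12 of 16 nuclear subunits fell and 0 rose, with a median of -0.27, among them Atp5b, the catalytic beta subunit, from a mean of 1610 to 1290 CPM. Complex II, which has no mitochondrial gene, had 3 of 4 subunits lower and a median of -0.34. The 25.1% of all genes called lower in EMT6 is the background of these counts.

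In D2A1 the nuclear subunits showed few calls, and 1 tumour decided this. With all 4 tumours, 0 of 36 nuclear complex I subunits fell and 1 rose, 1 of 9 fell in complex III, 1 fell and 1 rose of 12 in complex IV, and 1 of 16 fell in the ATP synthase. Without tumour 3, 15 of 36, 5 of 9, 7 of 12 and 10 of 16 fell, with medians of -0.23, -0.31, -0.26 and -0.29, where 19.1% of all genes were called lower. The 7 members with ample counts had a median of 0.06 in that fit. Ndufv3 of complex I and Cox7a2l, a factor of complex assembly listed with complex IV, rose in both lines, by 0.98 and 0.62 in D2A1 (SE 0.18 and 0.13, edgeR's adjusted p = 0.00134 and 0.00345) and by 0.56 and 0.49 in EMT6.

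**Figure D5:**
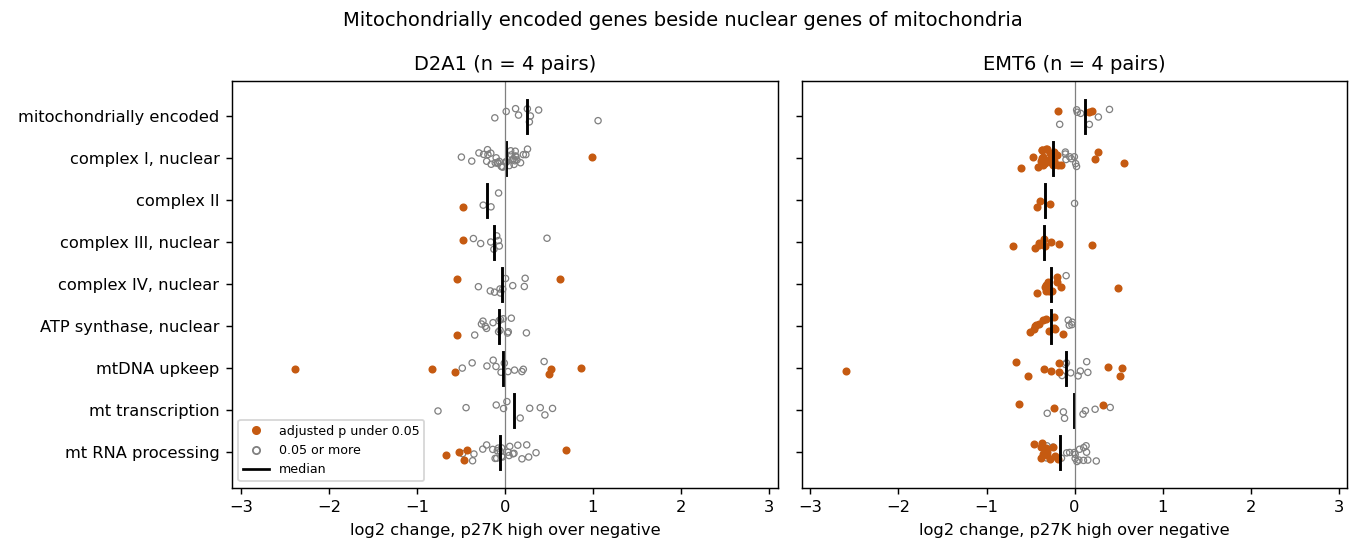
Log2 change from p27K negative to p27K high of every tested gene of the mitochondrially encoded set and of nuclear gene lists (points; filled, adjusted p under 0.05; vertical bars, list medians), in D2A1 and EMT6 with all 4 tumours each. In EMT6 the medians of the nuclear complexes lie between -0.35 and -0.24 and that of the 10 mitochondrially encoded genes at 0.11, or 0.03 for the 7 of them with ample counts.

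Of 18 genes for the replication and upkeep of mitochondrial DNA, 3 rose and 3 fell in D2A1 (33.3% called, where 29.5% of all genes were), and 3 rose and 7 fell in EMT6 (55.6%, where 49.2% of all genes were), shares near those of all genes. The nuclease and helicase Dna2, which also works in nuclear replication, fell by 2.39 in D2A1 and fell by 2.60 in EMT6 on the log2 scale (SE 0.20 and 0.14, edgeR's adjusted p = 1.11e-06 and 4.95e-07). Tk2, the mitochondrial thymidine kinase, rose by 0.87 and 0.38 (SE 0.14 and 0.08, edgeR's adjusted p = 4.90e-04 and 0.00237). Slc25a36, a pyrimidine nucleotide carrier, rose by 0.53 and 0.54 (SE 0.12 and 0.08).

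Of 10 transcription genes, 0 passed in D2A1 with edgeR, where 2 had an unadjusted p under 0.05, or with DESeq2, where 1 had, and 1 rose and 2 fell in EMT6. Mrpl12, a ribosomal protein that also binds the mitochondrial RNA polymerase, fell by 0.63 in EMT6 (SE 0.07, edgeR's adjusted p = 6.09e-05) and was at -0.44 in D2A1 (adjusted p = 0.0522). Of the genes for mitochondrial RNA processing and stability, 4 fell and 1 rose of 29 in D2A1, and 12 fell and 0 rose of 30 in EMT6. The shares called were 17.2% and 40% in this list and 0% and 30% among the transcription genes. Of all genes, 29.5% were called in D2A1 (14.7% lower) and 49.2% in EMT6 (25.1% lower). Lrpprc, which stabilises mitochondrial mRNAs, fell by 0.52 in D2A1 and fell by 0.37 in EMT6 (SE 0.11 and 0.05, edgeR's adjusted p = 0.00340 and 0.000147). Of the regulators of mitochondrial biogenesis, 4 fell and 1 rose of 11 in D2A1, and 5 fell and 1 rose of 9 in EMT6 (45.5% and 66.7% called). Nrf1, a transcription factor for nuclear respiratory genes, fell by 0.42 in D2A1 and fell by 0.96 in EMT6 (SE 0.13 and 0.06, edgeR's adjusted p = 0.0248 and 1.72e-06). Esrra rose in D2A1 by 0.57 and Sirt3 in EMT6 by 0.33 (SE 0.17 and 0.11, edgeR's adjusted p = 0.0220 and 0.0336).

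Of 8 genes by which low oxygen acts on the respiratory chain and on mitochondria, 6 rose and 0 fell in each line, where 14.9% of all genes were called higher in D2A1 and 24.1% in EMT6. Lonp1 and Fundc1 did not pass in either line. Bnip3, which marks mitochondria for removal, rose by 1.67 in D2A1 and 0.92 in EMT6 (SE 0.11 and 0.06, edgeR's adjusted p = 1.27e-07 and 2.52e-06). Bnip3l, which acts likewise, rose by 0.88 and 0.76 (SE 0.12 and 0.04).

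Marker levels of other cells moved with the gates, and their part in the members' values was not tested. The 15 macrophage and monocyte markers summed to 142 to 181 CPM in D2A1 p27K high against 75.8 to 133 in p27K negative cells, and to 45.4 to 59.2 against 32.6 to 46.4 in EMT6, with 0 of the 15 at 0. In D2A1 the sum followed Cd14, at a mean of 137 against 61.6 CPM (log2 change 1.12, edgeR's adjusted p = 0.000179), while the other 7 tested had negative log2 changes that did not pass, and the median of the 8 was -0.94. In EMT6 3 of 6 tested rose and 1 fell. The 8 fibroblast markers summed to 653 to 754 CPM in D2A1 p27K high against 498 to 716 in p27K negative cells, with 2 of 8 higher and 3 lower, among them Pdgfra at 1.07 and Col3a1 at -1.74 on the log2 scale, and Thy1 at 0.242 against 6.71 CPM. In EMT6 they summed to 2612 to 4068 against 2021 to 3190, and 5 of 6 tested rose, among them Dcn by 2.04 and Pdgfra by 0.81. The neutrophil marker S100a8 rose by 1.53 in D2A1 and 1.44 in EMT6, while the 8 markers of its list summed to at most 8.97 CPM. The 12 T and NK cell markers summed to at most 1.39 CPM in any library. The 8 endothelial and pericyte markers summed to 0.613 to 6.83 CPM in D2A1 p27K high against 10.9 to 26.0 in p27K negative cells.

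Genes outside the mitochondrial genome whose levels ran most nearly with the members were named by correlation over the 16 libraries, after each line's mean was removed, among 9276 genes. With the mean of the 9 members tested in both lines, the highest were Chst12, a chondroitin sulfotransferase (r = 0.92), Smim20 (r = 0.90), Dennd2a (r = 0.90), Glb1, the lysosomal beta-galactosidase (r = 0.88), and Crtap (r = 0.87). The lowest were Rnps1, Dhx36, Pkn2, Zbtb6 and Zc3h14, from -0.89 to -0.88. The points share gates and tumours, so this is a description. With the mean of the 7 members that have ample counts, a choice made after the values were seen, the highest were Slc38a10 (r = 0.84), Tspan3 (r = 0.84), Pmp22 (r = 0.83), Aplp2 (r = 0.82) and Itga1 (r = 0.80), so the names depended on the members with few reads.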

How the data were processed

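RNA was measured in 24 libraries, of which the 16 of D2A1 and EMT6 were used. Per the labels' protocols, tumours were digested, stained for CD45 and sorted, RNA was extracted with the miRNeasy Micro kit, and GENEWIZ sequenced it and made the tables. The authors deposited raw, whole-number counts per gene in a table per line. The submitters' processing notes name mm10 and DESeq2. The library kit, strandedness, aligner, counter and gate settings are in none of the sources used. From the D2A1 table and from the EMT6 table, a totals entry, 176 entries with a blank name and 4 ambiguous date entries were left out. The blank entries held at most 0.0109% of a library.

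Each line was fitted with edgeR 4.0.16 (quasi-likelihood test, TMM scaling, default filter on low counts, tumour as a block), with Benjamini-Hochberg adjustment over all genes tested and a threshold of 0.05. The standard error is the change over the square root of F. The lines were compared in 1 fit of 16 libraries by the interaction of line and gate. CPM are counts over TMM-scaled library size, so depth sets their precision. Copies were sought as identical windows of 50 bases in GENCODE vM21 transcripts (GRCm38), whose build matches mm10. The fits were tried on simulated data with no differences between tumours and with planted changes larger than those of the members with ample counts. The simulation therefore does not cover changes as small as theirs or the pairing by tumour. Alternatives were other scalings, filters, DESeq2 1.42.0, no block, and each tumour left out.

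The members and lists were chosen with earlier results of these data known. All 10 members were named, and the 5 genes most and least like them. From every other list the 2 genes with the smallest p in each line were picked, but not all of these are named. Some genes outside that rule are named too, among them Krt18, Krt5, Epcam and Dcn.

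For D2A1 the labels give the tumour of each library, which pairs the gates. EMT6 columns carry the numbers 0, 1, 2 and 4, which are not those of the titles. They were paired by number because same-numbered libraries deviated together over 5000 genes (r of 0.615, 0.574, 0.813 and 0.648). In D2A1 r was 0.112, 0.210, 0.0834 and 0.294. Tumours are the replicates, and p-values measure their spread.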

Additional observations from a re-analysis of the deposited data

Results flagged for a closer look

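In D2A1 p27K high cells mt-Nd6 stood at 809 CPM in tumour 3 (5231 counts), against 361 to 413 in the other 3 libraries. The gap was 0.883 of the group's range, above Dixon's 95% limit, and 44 groups were examined, of which chance alone puts about 1 in 20 past such a limit. The same library was high for cytosolic ribosomal protein and nuclear complex I genes, and its part in the other D2A1 values is given by leaving out that tumour.

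The change of mt-Nd1 between the gates was larger in D2A1 than in EMT6 by 0.38 on the log2 scale (SE 0.12), with every D2A1 tumour higher and every EMT6 tumour lower in p27K high cells under TMM scaling. The log2 gap was 0.01 to 0.03 in 3 of the D2A1 tumours, and as a share of all counts D2A1 tumour 1 had the opposite sign. The interaction in edgeR's quasi-likelihood test, fitted across all genes, had an adjusted p of 0.107. The median difference of all genes in that fit was 0.08, and other settings put the difference of mt-Nd1 at 0.25 to 0.43.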

How the results depend on the processing

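Among single members, 327 of the values under other settings kept direction and side of the threshold, 8 reversed, 8 gained a call and 6 lost one. In D2A1, mt-Nd2 reversed to -0.0098 when scaled by total count. Leaving out 1 tumour at a time gave -0.016 (without tumour 4) to 0.032 for mt-Nd2, -0.203 to 0.059 (without tumour 3) for mt-Nd5, -0.012 (without tumour 3) to 0.350 for mt-Nd6 and -0.074 (without tumour 3) to 0.644 for mt-Co3. In EMT6 it gave -0.037 (without the tumour numbered 0) to 0.092 for mt-Nd5. Between lines it gave -0.161 to 0.117 for mt-Nd5 and -0.165 to 0.592 for mt-Co3, both reversed without D2A1 tumour 3. The ratio of mt-Nd6 to the summed others reversed without the same tumour. It ranged from -0.204 to 0.199 in D2A1 and from -0.122 to 0.0499 over both lines. The cause was not tested.

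With no filter on low counts, the members called were 3 in D2A1 (mt-Co1, mt-Nd4 and mt-Nd6) and 1 in the comparison of lines (mt-Nd1, adjusted p = 0.0182), where 1162 genes were called. The share of all genes called in that D2A1 fit is not given here, so its count is not read as a result about the members. In the main D2A1 fit the share was 29.5%. Without the replicate block, that is without pairing by tumour, 0 members were called in EMT6, with adjusted p of 0.106 for mt-Nd1, 0.233 for mt-Co1 and 0.360 for mt-Nd4, and 177 genes differed between lines. Leaving out 1 tumour gave 2444 to 5051 genes called in D2A1, with the lowest without tumour 1 and the highest without tumour 3, 0 to 1 members called in D2A1, 267 to 1139 genes called between lines and 0 to 1 members there. Of the 664 genes called between lines 63.4% had the larger change in D2A1, against 42.5% with DESeq2 size factors and 42.9% with total counts, which moved the median of all genes from 0.08 to -0.01. The D2A1 p27K negative library of tumour 1, with 1335433 counts, was the shallowest, and a few reads limit mt-Co2, mt-Co3 and mt-Atp6 throughout.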

Other observations

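The 3 coding genes left out of the member list all had low counts, whether or not their windows occurred in an annotated nuclear transcript. mt-Nd3 and mt-Nd4l, a pair of complex I subunits that share 98.0% and 98.8% of their 50-base windows with nuclear transcripts, had 0 to 3 and 0 to 5 counts in D2A1 libraries and 15 to 41 and 8 to 16 in EMT6 libraries. mt-Atp8, an accessory subunit of the ATP synthase, shared 0% of its windows with annotated nuclear transcripts and had 0 to 8 and 9 to 36 counts. It is 204 bases long, lies between mt-Co2 and mt-Atp6, and its end overlaps mt-Atp6. Copies outside annotated transcripts were not sought. On chromosome 1 the copy of mt-Atp6, Gm10925, ends at 24614651 and that of mt-Co2, Gm28661, starts at 24614885. The stretch between them was not searched, so a copy of mt-Atp8 there cannot be told. The tRNAs mt-Td and mt-Tk, which flank mt-Co2, were at 0 counts in all 16 libraries.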
